A study of Mus musculus with 11 samples.

Results

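The genes described here are 8 genes of antibody-secreting cells and of the transport of secretory IgA, namely *Igha*, *Ighm*, *Jchain*, *Pigr*, *Mzb1*, *Derl3*, *Tnfrsf17* and *Xbp1*. They were taken by symbol from a table of 45777 genes, and all 8 were found. The symbols were chosen with earlier results of these data known. RNA of skin and small intestine (SI) from BALB/c mice of either sex was sequenced after topical treatment of the shaved back and the right ear, with 62.5 mg of cream a day for 5 to 8 days from 8 to 10 weeks of age. Control mice received Vaseline and IMQ-treated mice received a cream with 5% imiquimod (IMQ, Aldara), so that IMQ and the other ingredients of its cream cannot be told apart. The question behind the 2 tissues is what skin inflammation of the psoriatic kind does at a distance, in the gut. The paper also measured IMQ itself in serum and intestine after topical use. Effects of IMQ within SI and effects of skin inflammation therefore cannot be told apart here. The libraries are named by their labelled numbers, as skin control 1 to 3, skin IMQ 4 to 6, SI control 7 to 9 and SI IMQ 10 and 11. The labels do not give the segment of SI that was taken, whether it held Peyer's patches, or which skin and SI libraries came from the same mouse.

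Plasma cells are the antibody-secreting end stage of the B cell. In the gut most of them make IgA as a dimer that is held together by the J chain and carried across the epithelium by the polymeric immunoglobulin receptor. *Igha* and *Ighm* encode the constant regions of the IgA and IgM heavy chains, *Jchain* encodes the J chain, and *Pigr*, which epithelial cells and not plasma cells express, encodes the receptor. *Mzb1* and *Derl3* encode proteins of the endoplasmic reticulum (ER) that serve immunoglobulin assembly and the removal of misfolded proteins, *Xbp1* encodes the transcription factor of the secretory and unfolded protein response that plasma cells need, and *Tnfrsf17* encodes BCMA, a receptor for the survival factor APRIL.

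In RefSeq annotation of GRCm38.p6, *Igha* (Entrez Gene 238447) lies on chromosome 12 from 113256204 to 113260236 and *Ighm* (16019) on the same chromosome from 113418826 to 113422730, both in the heavy-chain locus. *Jchain* (16069) lies on chromosome 5 from 88519809 to 88527897, *Pigr* (18703) on chromosome 1 from 130826684 to 130852249 and *Mzb1* (69816) on chromosome 18 from 35647265 to 35650266. *Derl3* (70377) lies on chromosome 10 from 75893398 to 75895941, *Tnfrsf17* (21935) on chromosome 16 from 11313232 to 11320074 and *Xbp1* (22433) on chromosome 11 from 5520641 to 5525993. The reads of BALB/c mice were aligned to mm10, which is built from C57BL/6, a strain with another heavy-chain haplotype, and the effect of this on the immunoglobulin counts was not tested.

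The libraries held 44995414 to 58526384 counts. Skin control 2 stood apart, because its summed count over 11 markers of the intestinal epithelium was 0.998% of that in control SI. The other 5 skin libraries had 0.00359% to 0.0261%. The 11 are those of 15 markers that were under 0.1% of control SI in skin controls 1 and 3, so low values there follow in part from this choice. Over all 15 markers, skin control 2 had 1.55% and the other 5 skin libraries had 0.350% to 0.581%. The fold changes of the members in skin and their differences between the tissues are given with and without this library. SI control 9 stood apart in B cell genes, with 389 counts of *Ms4a1* against 15 to 58 in the other 4 SI libraries.

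Sequences upstream of the start site are shown for *Derl3*, which was higher in both IMQ libraries of SI than in every control, and for *Pigr*, because these were the members with a match to any of 4 motifs that were searched. RefSeq promoter entries on GRCm38.p6 were found for 5 of the 8 members, namely *Jchain*, *Pigr*, *Derl3*, *Tnfrsf17* and *Xbp1*, and the 250 bases before each start were searched on both strands. The motifs were the ER stress response element (ERSE, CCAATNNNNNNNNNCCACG), the core of the element bound by XBP1 (UPRE, TGACGTGG), the octamer of immunoglobulin promoters (ATTTGCAT) and the E-box CACGTG. The *Derl3* upstream sequence on the plus strand, at chr10:75893148-75893397, is printed with the ERSE in capitals, and the *Pigr* sequence, at chr1:130826584-130826643 on the plus strand, with the E-box in capitals.
Derl3: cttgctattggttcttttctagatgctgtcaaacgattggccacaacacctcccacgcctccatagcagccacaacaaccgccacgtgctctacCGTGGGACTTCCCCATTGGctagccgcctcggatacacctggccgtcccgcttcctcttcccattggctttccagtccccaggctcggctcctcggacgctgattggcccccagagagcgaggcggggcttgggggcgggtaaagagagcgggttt
Pigr: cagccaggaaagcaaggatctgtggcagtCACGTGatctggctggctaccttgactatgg
The ERSE of *Derl3* ran from -156 to -138 relative to the start site, as the reverse complement of the letters given, and 37 of 32851 promoter entries (0.113%) held this motif. *Derl3* also had an E-box from -168 to -163 that did not overlap the ERSE, and the E-box of *Pigr* ran from -71 to -66. An E-box was found in 6.02% of the entries, the UPRE core in 0.563% and the octamer in 1.60%. No match to the 4 motifs was found in the windows of *Jchain*, *Tnfrsf17* and *Xbp1*. A match is a description of the letters and does not show that a factor binds there.

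Without IMQ, the RNA of IgA, the J chain and the IgA receptor was far more abundant in SI than in skin, whereas no difference was called for *Ighm*. Levels are compared between genes as the authors' FPKM, which divides the count by transcript length and library size. In control SI, *Igha* had 3073, 3243 and 6145 FPKM from lowest to highest, *Pigr* had 1171, 1225 and 1264, and *Jchain* had 449, 475 and 725. These 3 genes stood far above *Xbp1* at 80.3 to 92.2 FPKM, *Mzb1* at 23.9 to 29.8, *Ighm* at 15.1 to 26.6, *Derl3* at 5.66 to 7.75 and *Tnfrsf17* at 2.54 to 3.49. In control skin the order began with *Xbp1* at 61.3 to 73.8 FPKM and *Ighm* at 28.4 to 38.3. *Igha* followed at 4.15, 6.55 and 35.7 FPKM and *Jchain* at 0.666, 0.727 and 6.36, the highest value of each being that of skin control 2. *Pigr*, *Mzb1*, *Derl3* and *Tnfrsf17* had under 1 FPKM in skin controls 1 and 3.

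Of the 7 members with a count in every library, 6 were higher in control SI than in control skin by the quasi-likelihood test of edgeR. Adjustment was by Benjamini-Hochberg over the 18108 genes tested, of which 57.0% were called (28.2% higher). A gene is called here at an adjusted p under 0.05. The log2 difference was 9.34 (SE 1.79) for *Pigr*, 8.46 (SE 0.97) for *Igha*, 8.12 (SE 1.09) for *Jchain*, 5.73 (SE 0.31) for *Mzb1*, 4.68 (SE 0.50) for *Derl3* and 0.75 (SE 0.15) for *Xbp1*. The adjusted p of these 6 genes by this edgeR test ran from 1.11e-07 for *Mzb1* to 0.00143 for *Xbp1*. Without skin control 2 the differences of *Pigr*, *Igha* and *Jchain* grew to 14.56, 10.12 and 10.13, those of *Mzb1*, *Derl3* and *Xbp1* were 6.21, 4.34 and 0.87, and all 6 stayed called. *Ighm* had a log2 difference of -0.39 (SE 0.23), which was not called (adjusted p = 0.185, edgeR), and which became -0.75 with a call (adjusted p = 0.00414) without SI control 9. Without skin control 2 it was -0.23. On log2(FPKM + 1) the difference of *Ighm* was -0.85, which limma called. *Tnfrsf17*, the BCMA gene, was not tested because skin IMQ 5 had 0 counts. These are bulk tissues, in which fewer cells of a type and less RNA per cell cannot be told apart.

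**Figure D1:**
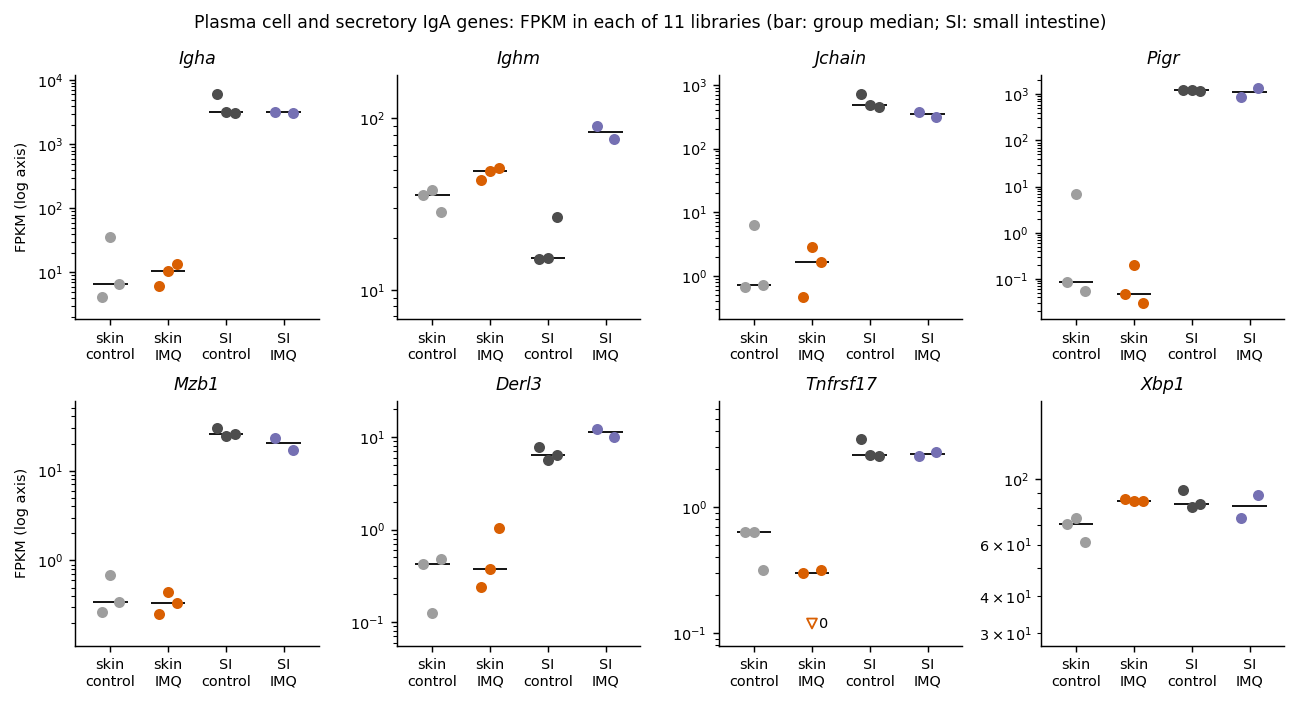
FPKM of the 8 genes on log axes in skin control 1 to 3, skin IMQ 4 to 6, SI control 7 to 9 and SI IMQ 10 and 11; each point is 1 library, each bar a group median, and the open triangle a value of 0. By FPKM the 4 groups of *Ighm* do not overlap, from 15.1 to 26.6 in SI control up to 75.6 to 90.2 in SI IMQ. On counts scaled over all 11 libraries its 2 control groups overlap.

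In the SI of IMQ-treated mice, *Ighm* rose about 4.44-fold while *Igha* did not. *Ighm* had 1324, 1248 and 2391 normalised counts in SI control 7, 8 and 9, and 7706 and 6978 in SI IMQ 10 and 11 (counts scaled by the relative log expression method to the mean library). Both IMQ libraries stood above every control, with the nearest control, SI control 9, at 2391. The log2 fold change was 2.15 (SE 0.28, adjusted p = 0.00711, edgeR's quasi-likelihood test, n = 3 and 2). By FPKM *Ighm* was highest in SI IMQ (75.6 and 90.2), then in skin IMQ (43.9 to 51.3). Skin control (28.4 to 38.3) and SI control (15.1 to 26.6) followed, and no range overlapped its neighbour. On counts scaled over all 11 libraries, SI control (1430 to 2756) and skin control (1965 to 3001) did overlap. How many genes of the whole table have 4 separate ranges was not counted. *Ighm* was the only 1 of the 8 members called in SI (12.5%), against 2.95% of the 19965 genes tested (2.77% called higher). Without SI IMQ 10 the log2 fold change was 2.08 and was no longer called (adjusted p = 0.0537), and with each of the other 4 SI libraries left out the call was kept.

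*Igha* had 443083, 216904 and 227573 normalised counts in SI control 7, 8 and 9, and 225267 and 237050 in SI IMQ 10 and 11. SI control 7 was high, and the IMQ libraries lay beside the other two controls. The log2 fold change was -0.36 (SE 0.41, adjusted p = 0.829, edgeR), and it was 0.06 without SI control 7. *Igha* thus had a difference smaller than the spread between its own replicates.

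The number of *Igha* counts per *Ighm* count was lower in both IMQ libraries of SI than in every control. It was 335, 174 and 95.2 in SI control 7, 8 and 9, and 29.2 and 34.0 in SI IMQ 10 and 11, and the mean of the log2 ratios differed by -2.49, or 5.61-fold. This ratio needs no scaling between libraries. The ratio of FPKM differs from it only by the lengths of the 2 genes, so its log2 difference is the same by construction. The exact two-sided permutation test gave p = 0.2, the smallest that the 10 divisions of 3 and 2 libraries allow. *Igha* made up 97.9% to 99.4% of the counts of all heavy-chain constant regions in SI control and 95.3% and 95.9% in SI IMQ. *Ighm* made up 0.297%, 0.569% and 1.03% in SI control and 3.26% and 2.82% in SI IMQ, so IgA RNA remained by far the main heavy-chain RNA in both groups.

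The summed counts of the heavy-chain variable segments did not separate the SI groups. Counts of all *Ighv* segments were 14.1, 18.6 and 17.4 per 100 heavy-chain constant counts in SI control. They were 17.4 and 18.2 in SI IMQ, and the 2 ranges overlapped. *Igha* made up 95.3% to 99.4% of the constant counts in SI, so a rise of *Ighm* could hardly move this measure. Whether *Ighv* counts rose with *Ighm* cannot be read from it. *Ighd*, whose product naive B cells carry together with IgM, had a log2 fold change of -1.75 (SE 1.18) in SI and was not called. It had 10.8, 26.2 and 236 normalised counts in SI control 7, 8 and 9. In SI IMQ 10 and 11 it had 30.9 and 23.3, so the negative value rested on SI control 9. In skin, where *Ighm* made up 56.0% to 90.1% of the heavy-chain constant counts, *Ighv* counts were 1.01 to 10.6 per 100 *Ighm* counts. The *Igkv* segments gave 53.0 to 84.7 counts per 100 *Igkc* counts over all 11 libraries. The 2 ratios are not on the same scale, as *Ighm* spans 3905 bases of the genome and *Igkc* 320. The part of length in their difference was not tested. In skin control *Ighm* had 2507 to 3078 counts and *Igkc* 96 to 1128. Whether reads of the other strand or of unrearranged transcripts were counted in *Ighm* was not tested, because the handling of strand is not given in the sources used here.

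**Figure D2:**
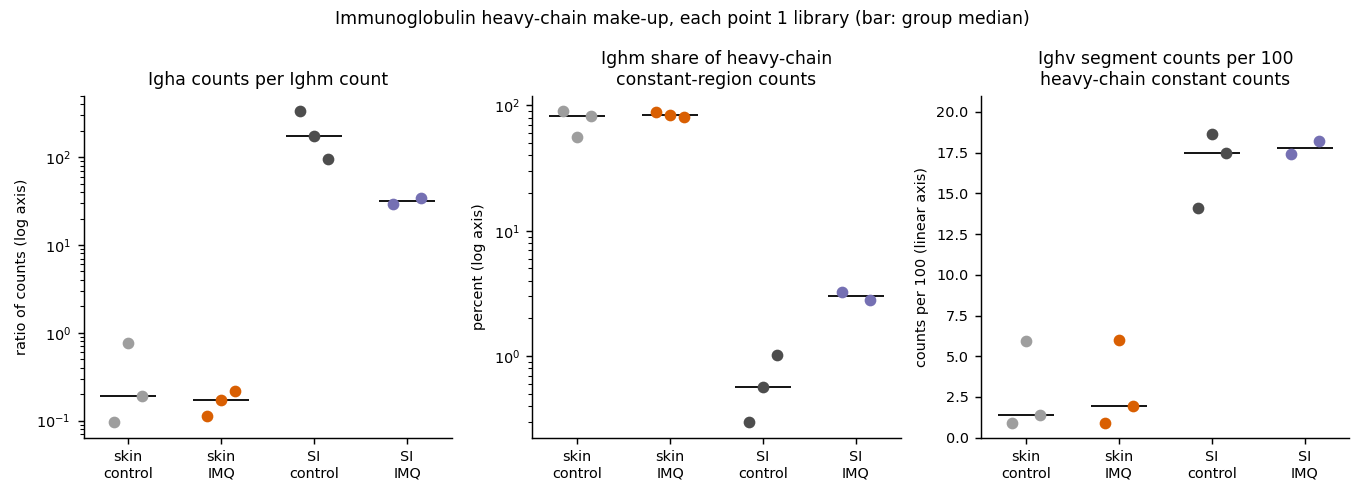
*Igha* counts per *Ighm* count (log axis), *Ighm* as a percentage of all heavy-chain constant-region counts (log axis) and *Ighv* segment counts per 100 heavy-chain constant counts (linear axis); each point is 1 of the 11 libraries and each bar a group median. In SI the IMQ libraries sit below all controls in the ratio (29.2 and 34.0 against 95.2 to 335). They sit above them in the *Ighm* share. The *Ighv* measure overlaps, and in SI it mostly follows *Igha*, which makes up most of the constant counts.

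*Jchain* and *Pigr*, the genes of IgA assembly and transport, were not called in SI. *Jchain* had 89516, 54426 and 56922 normalised counts in SI control 7, 8 and 9, and 45836 and 40599 in SI IMQ 10 and 11. All controls were above both IMQ libraries, but SI control 7 was also well above the other controls, and the log2 fold change was -0.63 (SE 0.28, adjusted p = 0.426, edgeR). Per 100 *Igha* counts, *Jchain* had 20.2, 25.1 and 25.0 in SI control and 20.3 and 17.1 in SI IMQ. *Pigr* had 285706, 256803 and 271793 normalised counts in SI control, and 193231 and 318401 in SI IMQ. The controls lay between the 2 IMQ libraries, and the log2 fold change was -0.09 (SE 0.34, adjusted p = 0.963, edgeR).

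Of the ER genes, *Derl3* was higher in both IMQ libraries of SI, without a call. It had 604, 413 and 503 normalised counts in SI control 7, 8 and 9, and 930 and 826 in SI IMQ 10 and 11. The groups did not overlap, and the log2 fold change was 0.79 (SE 0.20, adjusted p = 0.108, edgeR). *Derl3* passed the threshold with DESeq2 (adjusted p = 0.00938) and with edgeR without SI control 7 (0.94, adjusted p = 0.0451). *Derl3* had 0.675, 0.759 and 0.884 counts per 100 *Jchain* counts in SI control against 2.03 in each IMQ library. *Mzb1*, the cochaperone of immunoglobulin folding, had 1593, 1190 and 1404 normalised counts in SI control and 1211 and 964 in SI IMQ, with overlap and a log2 fold change of -0.36 (SE 0.18, adjusted p = 0.496, edgeR).

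The remaining members overlapped between the groups in SI. *Xbp1* had 12123, 9781 and 11082 normalised counts in SI control and 9436 and 12271 in SI IMQ, with a log2 fold change of -0.02 (SE 0.17, adjusted p = 0.987, edgeR). *Tnfrsf17* had 185, 118 and 140 in SI control and 127 and 147 in SI IMQ, with a log2 fold change of -0.11 (SE 0.29, adjusted p = 0.939, edgeR). In all, 3 of the 8 members did not overlap between the SI groups, which are *Ighm* and *Derl3* (higher) and *Jchain* (lower), and 29.0% of all genes tested did not overlap. The median log2 fold change of the 8 members was -0.10, against -0.02 over all genes tested.

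**Figure D3:**
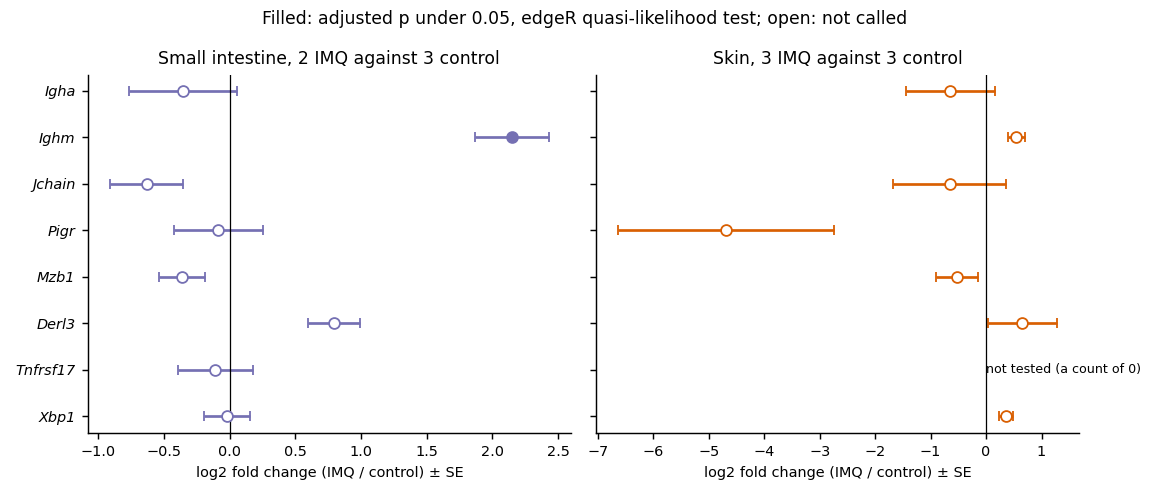
Log2 fold change (IMQ over control) with its standard error for each gene, in SI and in skin, on separate horizontal scales; filled points have an adjusted p under 0.05 by edgeR. The filled point is *Ighm* in SI at 2.15, and the skin value of *Pigr* at -4.69 has the longest error bar (SE 1.95).

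Among the other immunoglobulin constant regions, *Ighg2c* and *Iglc1* rose in SI, 2 of 9 tested. *Ighg2c*, the entry of the reference for the IgG2c heavy chain, had 49.9, 34.3 and 103 normalised counts in SI control 7, 8 and 9. It had 765 and 814 in SI IMQ, a log2 fold change of 3.65 (SE 0.42, adjusted p = 0.00398, edgeR). BALB/c mice carry *Ighg2a* in place of *Ighg2c*, so reads under this entry should not be taken as IgG2c RNA, and their gene of origin was not tested. *Iglc1*, a lambda light chain, had 2281, 2594 and 2204 in SI control against 4183 and 3614 in SI IMQ, a log2 fold change of 0.72 (SE 0.13, adjusted p = 0.0346, edgeR). The *Ighg2c* call was kept with any 1 of the 5 libraries left out (adjusted p up to 0.0278), and the *Iglc1* call was lost with any of them left out (adjusted p 0.0533 to 0.252). The kappa chain *Igkc* had a log2 fold change of -0.33 (SE 0.38) and was not called.

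The table holds 348 variable segments, of which 268 had a count in some library and 217 were tested in SI. They divided into 93 higher and 124 lower at a median of -0.16 on the log2 scale, and 2 were called. *Ighv6-7* was higher (2.82, SE 0.44, adjusted p = 0.0179, edgeR) at 2.77 to 7.06 normalised counts in control against 40.9 and 26.6 in IMQ. *Ighv1-14* was lower (-1.55, SE 0.29, adjusted p = 0.0363, edgeR) at 1539 to 2330 in control against 461 and 787. The *Ighv6-7* call was lost without SI control 9 (adjusted p = 0.0831) or SI IMQ 10 (0.111), and the *Ighv1-14* call without SI control 8 (0.0527), SI control 9 (0.0855) or SI IMQ 10 (0.185). The 3 segments with the most counts in SI were *Igkv10-96*, *Igkv1-110* and *Igkv1-117*, with log2 fold changes of -0.37 (SE 0.33), -0.91 (SE 0.56) and -0.41 (SE 0.51), none of them called. Segments of 1 family are near-identical in sequence, so their separate counts are uncertain.

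In SI no gene of the plasma cell program list was called. Of 12 tested, 3 were higher, 9 lower and 0 called by edgeR (1 at an unadjusted p under 0.05), with a median log2 fold change of -0.07. Those with the smallest p were *Tent5c*, a poly(A) polymerase that stabilises immunoglobulin RNA, at -0.31 (SE 0.12), and *Sdc1*, which encodes the plasma cell surface protein CD138, at -0.35 (SE 0.16). *Prdm1* and *Irf4*, the transcription factors of plasma cell identity, had 0.30 and -0.01, and were chosen for mention after their values were seen. The summed level of the 12 genes, scaled over all 11 libraries, was 33604 to 37320 in skin control and 40916 to 42763 in SI control. *Igha* differed between these groups by 8.46 on the log2 scale. Of the 12 genes, 7 were called higher and 2 lower in control SI than in control skin. The list thus does not follow plasma cells alone, and their change in SI cannot be read from it. Of 29 genes of ER folding and the unfolded protein response, 0 were called in SI by edgeR (4 at an unadjusted p under 0.05), with a median of -0.05. *Herpud1* and *Atf6*, both of the ER stress response, had 0.51 (SE 0.18) and 0.36 (SE 0.13). DESeq2 called the same numbers, 0 and 0, in these lists.

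No B cell marker was called by edgeR in SI, and SI control 9 was far above the other SI libraries for some of them. Of 12 tested, 3 were higher, 9 lower and 0 called by edgeR (3 at an unadjusted p under 0.05, and 3 called by DESeq2), with a median log2 fold change of -0.97. *Bank1* and *Cd79b*, which encode proteins of B cell receptor signalling, had 1.49 (SE 0.33, adjusted p = 0.0693) and 1.20 (SE 0.27, adjusted p = 0.0765), and *Cd22*, an inhibitory receptor, had -1.40 (SE 0.32, adjusted p = 0.0820, all by edgeR). The summed level of the 12 markers, scaled over all 11 libraries, was 1624 to 4151 normalised counts in control and 2325 and 2686 in IMQ, and the highest control was SI control 9. The part of B cells in the *Ighm* difference was not tested. SI control 9 had the highest *Ighm* value of the controls, and without it the log2 fold change of *Ighm* was 2.51.

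Some genes of IgA switching and of the homing of IgA cells changed in SI. In the list of switching and T cell help, 4 of 11 genes tested were called, all of them higher, and the median log2 fold change was 0.03, while 2.95% of all genes tested in SI were called. *Tgfb1*, the cytokine that directs switching to IgA, rose by a log2 fold change of 1.65 (SE 0.20, adjusted p = 0.00480), from 808 to 1258 normalised counts in control to 3145 and 3009 in IMQ. Its receptor genes *Tgfbr1* and *Tgfbr2* rose by 1.26 (SE 0.15) and 0.98 (SE 0.12), and *Bcl6*, a transcription factor of germinal centres, by 0.98 (SE 0.16). TGF-beta and its receptors are expressed by many cell types, so these rises cannot be assigned to a cell type in bulk tissue. The calls of *Tgfb1* and *Tgfbr1* were kept with any 1 library left out, that of *Tgfbr2* was lost without SI IMQ 10 (adjusted p = 0.0555) or SI IMQ 11 (0.0528), and that of *Bcl6* without SI control 9 (0.0766), SI IMQ 10 (0.0982) or SI IMQ 11 (0.157).

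Of the 9 homing genes 3 were called, and the median was 0.11. *Itga4*, whose alpha chain is part of the gut-homing integrin, rose by 0.88 (SE 0.11, adjusted p = 0.00682, edgeR). *Madcam1*, the gene of the ligand of that integrin, rose by 1.30 (SE 0.26, adjusted p = 0.0465, edgeR). *Itgb7*, the gene of its other chain, had 0.03 (SE 0.19), and the receptor genes *Ccr9* and *Ccr10* had -0.14 and 0.11, none of them called. In skin *Itga4* had 0.85 (SE 0.20, adjusted p = 0.0544, edgeR). Which cells carried the rise of *Itga4* was not tested. *Ccl28*, an epithelial chemokine for IgA cells, fell from 3345, 3417 and 4046 normalised counts in control to 2053 and 2140 in IMQ (log2 fold change -0.78, SE 0.14, adjusted p = 0.0269, edgeR). The *Itga4* call was lost without SI IMQ 10 (adjusted p = 0.0704) or SI IMQ 11 (0.0686), and the *Madcam1* call without SI control 8 (0.117), SI control 9 (0.175), SI IMQ 10 (0.221) or SI IMQ 11 (0.215). The *Ccl28* call was lost without SI control 8 (0.0676), SI control 9 (0.0630), SI IMQ 10 (0.224) or SI IMQ 11 (0.175). *Ccl28* was also the 1 gene called of 6 tested survival factors, among which *Tnfsf13b*, the gene of BAFF, had 0.74 (SE 0.21, adjusted p = 0.155, edgeR).

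Although *Pigr* itself overlapped between the SI groups, 2 of 11 tested genes of its inducing pathways rose. *Il1b* rose by a log2 fold change of 3.16 (SE 0.38, adjusted p = 0.00519) and *Myd88*, the adaptor of the Toll-like receptors, by 0.87 (SE 0.11, adjusted p = 0.00607, both by edgeR). The *Myd88* call was lost without SI IMQ 10 (adjusted p = 0.0531) or SI IMQ 11 (0.0740), and the *Il1b* call was kept with any 1 library left out.

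Markers of other cells in the SI samples moved with the treatment in part. Of 15 markers of the intestinal epithelium 0 were called by edgeR (5 at an unadjusted p under 0.05, 1 called by DESeq2), with a median of -0.11, 9 lower and 6 higher. Their summed level did not overlap, at 1591739 to 2498735 normalised counts in control against 2632649 and 3280634 in IMQ. *Apoa4*, an apolipoprotein gene named here for its share of this sum, had a mean of 274634 in control and 961829 in IMQ on the same scaling over all 11 libraries, and in SI a log2 fold change of 1.83 (SE 0.58), not called. Of 13 goblet and Paneth cell markers 12 were lower, 1 of them called (*Agr2*, log2 fold change -0.92, SE 0.14, adjusted p = 0.0131, edgeR), and the call was lost without SI IMQ 10 (adjusted p = 0.150) or SI IMQ 11 (0.145). Of 7 markers of the epithelium over Peyer's patches, *Gp2*, the M cell receptor, was lower (-3.64, SE 0.47, adjusted p = 0.00711) and *Anxa5* was higher (1.02, SE 0.12, adjusted p = 0.00398, both by edgeR). All 6 distal markers were lower in IMQ with 0 called by edgeR or DESeq2 (1 at an unadjusted p under 0.05) and a median of -0.70, and of 7 proximal markers 4 were higher with 0 called by edgeR (1 at an unadjusted p under 0.05). The part of cell make-up or of the stretch of gut sampled in the *Ighm* difference was not tested.

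**Figure D4:**
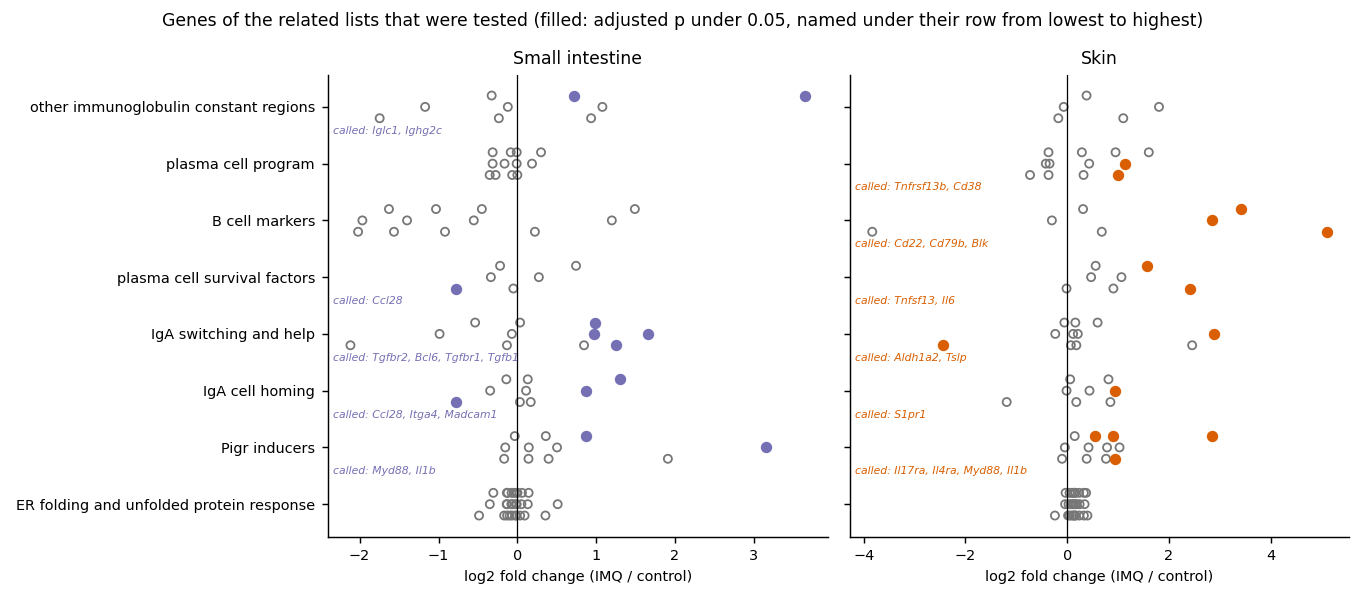
Log2 fold change (IMQ over control) of the tested genes of 8 related lists, in SI and in skin on separate scales; each point is 1 gene, and filled points, named under their row, have an adjusted p under 0.05 by edgeR. In SI the plasma cell program, B cell markers and ER genes have 0 filled points, while the switching list has 4 and the homing list 3.

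In skin no member was called, and the sign for 3 genes depended on skin control 2. Of the 7 members tested, 0 were called by edgeR and 1 by DESeq2, against 6.74% of 20512 genes tested by edgeR, and 3 members had an unadjusted p under 0.05 (*Ighm*, *Xbp1* and *Pigr*). The groups did not overlap for 2 members, *Ighm* and *Xbp1*, while 28.4% of all genes tested did not overlap.

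*Ighm* had 2785, 3204 and 2185 normalised counts in skin control 1, 2 and 3, and 3743, 4059 and 4092 in skin IMQ 4, 5 and 6. All IMQ libraries were above all controls, and the log2 fold change was 0.54 (SE 0.15, adjusted p = 0.0884, edgeR). It passed the threshold with DESeq2 (adjusted p = 0.0315) and without skin control 2 (0.68, adjusted p = 0.0316, edgeR). *Xbp1* had 8254, 9292 and 7096 in control and 11014, 10423 and 10124 in IMQ. These groups did not overlap either, and the log2 fold change was 0.36 (SE 0.13, adjusted p = 0.168, edgeR), or 0.46 (adjusted p = 0.0668) without skin control 2.

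*Igha* had 267, 2459 and 416 normalised counts in skin control 1, 2 and 3, and 426, 700 and 877 in skin IMQ 4, 5 and 6. *Jchain* had 73.3, 750 and 79.3 in control and 56.8, 327 and 187 in IMQ. *Pigr* had 17.2, 1524 and 11.3 in control and 10.9, 42.2 and 6.36 in IMQ. In all 3 genes skin control 2 was the highest library, and the log2 fold changes of -0.65 (SE 0.80) for *Igha*, -0.66 (SE 1.02) for *Jchain* and -4.69 (SE 1.95) for *Pigr* became 0.97, 1.32 and 0.48 without it, with no call in either case. The excess of skin control 2 over skin controls 1 and 3 was 0.585% of the control SI level for *Igha*, 0.822% for *Jchain*, 0.453% for *Pigr* and 0.660% for *Igkc*. The excess of the 11 epithelial markers was 0.376% to 1.64% of control SI with a median of 0.810%.

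Skin IMQ 5 was the library next to skin control 2 for *Jchain* and *Pigr*. It held 0.381% of the control SI level of *Jchain* and 0.0121% of that of *Pigr*, beside 0.0261% of that of the 11 epithelial markers. In skin control 2 these values were 0.911%, 0.457% and 0.998%. Skin IMQ 5 also had 710 counts of *Igkc* against 116 and 423 in skin IMQ 4 and 6, and 5.98 *Ighv* counts per 100 heavy-chain constant counts against 0.901 and 1.96.

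The ER genes and *Tnfrsf17* were near the limit of counting in skin. *Mzb1* had 20 to 48 counts in the 6 skin libraries, and its log2 fold change was -0.53 (SE 0.38, adjusted p = 0.454, edgeR), or -0.06 without skin control 2. *Derl3* had 9 to 67 counts, with a log2 fold change of 0.65 (SE 0.62, adjusted p = 0.580, edgeR), which was 0.29 without skin control 2 and -0.09 without skin IMQ 6. Skin control 2 was the lowest skin library for *Derl3*, at 1.57% of control SI against 2.85% to 10.9% in the others. *Tnfrsf17* had 16 to 32 counts in control and 0 to 15 in IMQ. With 0 counts in skin IMQ 5 it was not tested, and without that library its log2 fold change was -0.73 (SE 0.46, adjusted p = 0.529, edgeR).

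**Figure D5:**
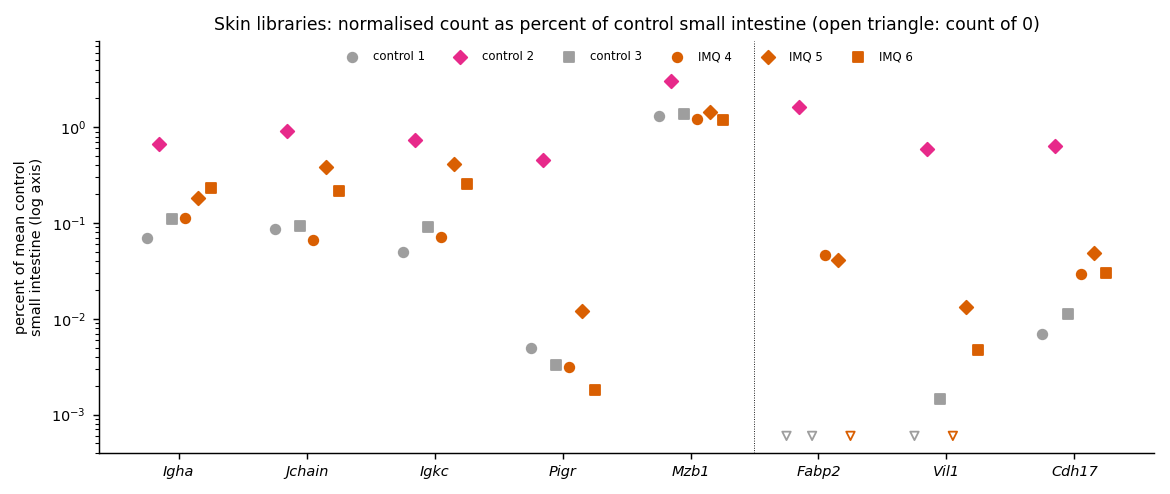
Normalised count in each skin library as a percentage of the mean of the 3 control SI libraries (log axis), for 5 plasma cell and IgA genes and, right of the dotted line, 3 genes of intestinal epithelium; open triangles stand for a count of 0. Skin control 2 (pink diamonds) is highest for the 8 genes shown, between 0.457% for *Pigr* and 3.05% for *Mzb1*, and lowest for *Derl3*, which is not shown.

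The related lists in skin held some called genes, beside the 6.74% called among all genes tested in skin. In the plasma cell program 2 of 12 tested were called, *Cd38* at 1.13 (SE 0.20, adjusted p = 0.0252) and *Tnfrsf13b*, a receptor for BAFF and APRIL, at 1.01 (SE 0.20, adjusted p = 0.0317, both by edgeR). Both genes are also expressed by other leukocytes. Each of the 2 calls was kept without skin control 2 and lost with any of the other 5 libraries left out (adjusted p 0.0620 to 0.121). Of 7 survival factors tested, *Il6* was called at 2.41 (SE 0.40, adjusted p = 0.0200) and *Tnfsf13*, the gene of APRIL, at 1.56 (SE 0.29, adjusted p = 0.0282, both by edgeR). The *Il6* call was lost without skin control 1 (adjusted p = 0.0810) or skin IMQ 5 (0.0733), and the *Tnfsf13* call without skin control 1 (0.0504), skin IMQ 4 (0.0743), skin IMQ 5 (0.111) or skin IMQ 6 (0.0823).

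In the switching list *Tslp*, an epithelial cytokine, rose by 2.89 (SE 0.29, adjusted p = 0.00445) and *Aldh1a2*, an enzyme of retinoic acid synthesis, fell by 2.44 on the log2 scale (SE 0.51, adjusted p = 0.0379, both by edgeR). The *Aldh1a2* call was kept without skin control 2 and lost with any of the other 5 libraries left out (adjusted p 0.0762 to 0.148). *S1pr1*, a receptor for lymphocyte egress, was the 1 gene called of 8 tested homing genes (0.94, SE 0.15, adjusted p = 0.0192, edgeR), and the call was lost without skin control 1 (adjusted p = 0.0900), skin IMQ 4 (0.0606), skin IMQ 5 (0.0896) or skin IMQ 6 (0.0589). Of 12 tested genes that induce *Pigr* in epithelia, 4 were called and higher, among them *Il1b* at 2.84 (SE 0.28) and *Myd88* at 0.94 (SE 0.11), whose calls were kept with any 1 library left out. *Il4ra* at 0.90 (SE 0.16, adjusted p = 0.0262) and *Il17ra* at 0.54 (SE 0.12, adjusted p = 0.0428) were called by edgeR too. Without skin control 1, skin control 3, skin IMQ 5 or skin IMQ 6 both of these calls were lost (adjusted p 0.0644 to 0.158), and without skin IMQ 4 that of *Il17ra* (0.0864).

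B cell markers and *Ighm* were not alike in skin. *Blk* rose by 5.10 (SE 0.49, adjusted p = 0.00420), *Cd79b* by 3.42 (SE 0.43, adjusted p = 0.00849) and *Cd22* by 2.85 (SE 0.36, adjusted p = 0.00889), 3 of 7 markers tested by edgeR, and each call was kept with any 1 library left out. *Blk* is also expressed by gamma delta T cells that make IL-17. The defining markers *Ms4a1*, *Cd79a* and *Pax5* stayed low in every skin library, at 0 to 14, 0 to 12 and 0 to 7 counts. The summed level of the 12 markers was 233 to 318 normalised counts in skin control and 1144 to 2346 in skin IMQ, and most of the difference was that of *Blk*, at 27.8 to 36.0 in control and 610.3, 792 and 1839 in IMQ, all scaled over the 11 libraries. *Fcer2a*, the low-affinity IgE receptor gene, had a log2 fold change of -3.83 (SE 1.05, adjusted p = 0.0812, edgeR), and *Cr2* had 1 to 5 counts in control and 0 in each IMQ library. The part of B cells in the *Ighm* values of skin was not tested.

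Of the other constant regions in skin 0 of 5 tested were called by edgeR (2 at an unadjusted p under 0.05, and 1 called without skin control 2) and 0 by DESeq2. *Ighg1* had 1.10 (SE 0.36, adjusted p = 0.127, edgeR) and *Ighg2b* 1.80 (SE 0.69, adjusted p = 0.179). The reference entry *Ighg2c*, a gene that BALB/c mice do not carry, had 0 counts in each of the 3 skin controls and 8, 20 and 28 in skin IMQ 4, 5 and 6. All IMQ libraries were thus above all controls in skin as in SI, though this entry was not tested in skin. Of 28 tested genes of ER folding and the unfolded protein response, 25 were higher and 0 called by edgeR (2 at an unadjusted p under 0.05, 1 called without skin control 2, and 2 called by DESeq2), with a median of 0.14 against -0.01 over all genes. *Ssr4* and *Atf4* had the smallest p, at 0.33 (SE 0.09) and 0.34 (SE 0.11). Of the 6 variable segments tested 0 were called by edgeR, with 0 at an unadjusted p under 0.05, and 0 by DESeq2.

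The change of *Ighm* was larger in SI than in skin. The interaction term, the log2 fold change in SI minus that in skin over all 11 libraries, was 1.62 (SE 0.35, adjusted p = 0.0390, edgeR). *Ighm* was 1 of 7 members called for this term, against 2.55% of 18108 genes tested. The call did not hold with the low-count filter of filterByExpr (adjusted p = 0.0601) or with no filter (0.0648). Of the 11 libraries, the call was kept without skin control 2, skin control 3 or SI control 9. It was lost without skin control 1 (adjusted p = 0.0871), skin IMQ 4 (0.0918), skin IMQ 5 (0.101), skin IMQ 6 (0.0662), SI control 7 (0.0697), SI control 8 (0.0783), SI IMQ 10 (0.140) or SI IMQ 11 (0.105), with a value of 1.45 to 1.98 over the 11 cases. The other members had interaction terms of 0.32 (SE 1.05) for *Igha*, 0.05 (SE 1.21) for *Jchain*, 4.64 (SE 2.06) for *Pigr*, 0.17 (SE 0.42) for *Mzb1*, 0.14 (SE 0.69) for *Derl3* and -0.37 (SE 0.23) for *Xbp1*, none of them called. Without skin control 2 those of *Igha*, *Jchain*, *Pigr* and *Mzb1* were -1.34, -1.97, -0.59 and -0.31, and those of *Derl3* and *Xbp1* 0.48 and -0.49.

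Genes whose levels followed the members within groups were sought over 10 libraries, without skin control 2, as the Pearson correlation of log2 normalised counts after the group mean was subtracted. About 13835 genes with a mean count of at least 50 in both tissues were ranked, and with so many candidates over 10 points that share libraries and depth the values of r are descriptions. For *Jchain* the gene most alike was *Igkc* (r = 0.95), followed by *Crem*, *Lipt1*, *Eif3i* and *Pold3* (0.94 to 0.95). For *Igha* the 5 were *Cyp1b1*, *Mettl22*, *Tagln2*, *Nudt19* and *Mrpl13* (0.97 to 0.99), and those of *Ighm* included *Pcgf5*, *Galnt1*, *Il33* and *Selenot* (0.95 to 0.96). For *Pigr* they were *Tfrc* (r = 0.97), *Adnp*, *Prmt9*, *Gm11843* and *Ddx10*, and for *Mzb1* *Gm5844* (r = 0.96), *Pmm1*, *Hsp90aa1*, *Nup85* and *Wdr4*. For *Derl3* they were *Ccm2*, *Kcnab2*, *As3mt*, *Rarres2* and *Ncr1* (0.98 to 0.99), and for *Xbp1* *Dhx29*, *Rptor*, *Mars*, *Nacc1* and *Iars* (0.98 to 0.99). Among the members, *Igha* correlated with *Derl3* at 0.74 and with *Jchain* at 0.70, while *Ighm* had -0.27 with *Igha* and 0.02 with *Jchain*.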

How the data were processed

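RNA was extracted with QIAzol and RNeasy, treated with DNase I and made into stranded mRNA libraries that were sequenced as 100-bp paired-end reads. The submitters' processing notes name bcl2fastq 2.20.0, Trimmomatic, HISAT2 2.1.0, StringTie 2.1.3b and the build mm10. The counting tool, the handling of strand and that of reads matching several genes are not given in the sources used here, so counts of immunoglobulin genes with near-identical copies are uncertain. The table deposited by the authors gives raw read counts per gene. Beside them stand the FPKM values of the authors, used here for levels. The TPM values of the authors were left out.

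Groups were taken from the sample labels: 3 control and 3 IMQ libraries of skin, 3 control and 2 IMQ libraries of SI. Nothing states that these came from separate mice, so p-values measure the spread between these libraries. Genes without a count of 0 in any library of a fit were tested with edgeR 4.0.16 (glmQLFit, glmQLFTest, R 4.3.3) after relative log expression scaling, and p-values were adjusted by Benjamini-Hochberg over the whole table of tested genes. The study used DESeq2, which was run as an alternative (1.42.0), as were limma 3.58.1 on voom weights and on log2(FPKM + 0.01) and log2(FPKM + 1), other scalings and filters, 1 fit of all 11 libraries and the omission of each library. SE is the log2 fold change divided by the root of F. The fits were tested on simulated data. The depth of 44995414 to 58526384 counts sets counting error only.

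The 8 members and all gene lists were chosen with earlier results of these data known. Named were all members, the called genes of each list (up to 8) or otherwise 2 to 4 with the smallest p, the 5 genes most alike to each member, and the 3 variable segments with the most counts in SI. *Ighd*, *Igkc*, *Prdm1*, *Irf4*, *Apoa4*, *Fcer2a*, *Itgb7*, *Ccr9*, *Ccr10*, the skin value of *Itga4* and the B cell markers given only by counts were chosen after their values were seen. Values of 2 genes of these lists are not reported here. *Tent5c* was found under its present symbol, and *Fdcsp* was not found. Markers of mammary gland were not testable in either tissue, and of the lymph node stroma list *Cxcl13* was called in skin (5.78, adjusted p = 0.00432, edgeR) and 0 of 2 in SI (0 at an unadjusted p under 0.05). In skin, 1 of 7 epidermis markers was called (*Krt14*, 1.41, adjusted p = 0.0447, edgeR), a call lost with any of the 6 libraries left out (adjusted p 0.0513 to 0.177).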

Additional observations from a re-analysis of the deposited data

Results flagged for a closer look

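Of 118 members and list genes tested, 12 had an IMQ effect that differed between the tissues, by the interaction term of edgeR's quasi-likelihood test (log2 fold change in SI minus that in skin, Benjamini-Hochberg adjusted over 18108 genes, of which 462 or 2.55% were called). *Ighm* was the 1 member among them, at 1.62 (SE 0.35, adjusted p = 0.0390).

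The effect was also higher in SI for *Tgfbr1* (1.05, SE 0.16), *Bcl6* (1.23, SE 0.28) and *Aldh1a2* (2.37, SE 0.53) of the switching list. *Bcl6* rose in SI by 0.98 and was not called in skin, and *Aldh1a2* was lower in skin and had 965 to 1298 normalised counts in SI control against 1146 and 986 in SI IMQ. *Anxa5* (1.17) and *Slc40a1* (1.31), from the marker lists of Peyer's patch epithelium and proximal SI, also had positive terms.

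The effect was lower in SI for *Blk* (-4.88, SE 0.86) and *Cd22* (-4.25, SE 0.51) of the B cell markers, whose skin values rose while the *Cd22* level in SI was 254 to 447 normalised counts in control against 164 and 117 in IMQ. It was also lower for *Cd38* (-1.13, SE 0.21), *Tslp* (-2.85, SE 0.50), *Tnfaip2* (-1.12, SE 0.24) and *Cxcl13* (-5.16, SE 0.97). Groups of 3 or 2 libraries are too small for a search for outlying libraries by gap.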

How the results depend on the processing

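No paired analysis was possible because the groups share no replicate numbers. Of 275 values of single members under other scalings, filters and tests, 259 kept direction and side of the threshold, as did 203 of 236 with 1 library left out. With DESeq2, 1 member was called in skin, 2 in SI and 3 between tissues, where *Igha*, *Jchain* and *Pigr* had no adjusted p. The interaction call was 0 members with filterByExpr and 0 with no filter. With 1 library left out, the members called numbered 0 to 1 in skin, 0 to 2 in SI and 0 to 1 for the interaction. Directions that turned were those of uncalled members. In skin *Igha* was 0.049 with voom. For the interaction, *Jchain* was -0.027 with upper-quartile scaling, -0.57 with voom, -0.48 on log2(FPKM + 0.01) and -0.47 on log2(FPKM + 1), *Igha* was -0.34, -0.25 and -0.22 with the last 3, and *Mzb1* was -0.15 and -0.30 on the FPKM scales. With 1 library left out, skin values ran from -1.11 to 0.97 for *Igha*, -1.29 to 1.32 for *Jchain*, -5.88 to 0.48 for *Pigr* and -0.093 to 0.99 for *Derl3*. SI values ran from -0.54 to 0.062 for *Igha*, -0.49 to 0.24 for *Pigr*, -0.25 to 0.091 for *Tnfrsf17* and -0.22 to 0.17 for *Xbp1*. Interaction values ran from -1.34 to 0.79 for *Igha*, -1.97 to 0.69 for *Jchain*, -0.59 to 5.84 for *Pigr*, -0.31 to 0.39 for *Mzb1* and -0.19 to 0.89 for *Derl3*. The cause was not tested. Of the named list genes, 31 of 353 values lost a call under other settings and 80 of 200 with 1 library left out, and 0 turned. All genes called numbered 1382, 588 and 462 in skin, SI and interaction, 3030, 1206 and 1281 with DESeq2, 894 in skin on log2(FPKM + 1), 301 for the interaction with no filter, and 258 to 2521, 294 to 801 and 144 to 1072 with 1 library left out.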
